A study of Homo sapiens with 6 samples.

Results

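The granule genes of mast cells and neutrophils were examined in subcutaneous human tumors of the NSCT and SKOV3 HD groups. These are 9 of the 58735 genes measured. They comprise 4 mast cell genes (TPSB2, TPSAB1, CMA1 and CPA3) and 5 neutrophil genes (PRTN3, MPO, ELANE, AZU1 and CTSG). The set was chosen by gene name because TPSB2, PRTN3 and MPO had higher values in the SKOV3 HD tumors, although human leukocytes are not expected in these tumors. The difference between the groups is therefore given for the 9 genes as a description, with no test. Only 4 of the 9 had at least 10 fragments in at least 3 tumors, namely TPSB2, TPSAB1, PRTN3 and MPO, and thus stand among the 15136 genes tested. These 4 reached 10 fragments in 3 SKOV3 HD tumors, but in only 1 NSCT tumor for TPSB2 and MPO and 2 for TPSAB1 and PRTN3. Of the other 5 genes, CPA3 and ELANE were at 0 in all 6 tumors, and CMA1, AZU1 and CTSG had at most 5 fragments in any tumor.

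Mast cells and neutrophils store serine proteases in cytoplasmic granules and release them on activation. In mast cells these are the tryptases and chymase, held together with carboxypeptidase A3. In neutrophils they are proteinase 3, neutrophil elastase, cathepsin G and the inactive homolog azurocidin, held with myeloperoxidase in the azurophil granules. The neutrophil genes are transcribed mainly in bone marrow precursors, and mature neutrophils carry the proteins with little of the transcripts.

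The tumors derive from SW1990, a human pancreatic adenocarcinoma cell line, and were passaged as tissue pieces under the skin of nude mice. NSCT tumors received normal saline, and the SKOV3 HD group was given the high dose of SKOV3, a human ovarian cancer line, by injection. Each group holds 3 tumors, all from 1 tumor line. Nude mice lack mature T cells but keep mast cells and neutrophils of their own, and these are mouse cells. The labels give neither the dose nor the day of these samples, nor whether a mouse or a cage links the tumors. P-values below measure the spread between these tumors only.

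From poly(A) RNA, the authors deposited FPKM, fragments scaled to exon length and library size, for each human gene. The whole fragments behind each value were recovered, and they total 13585284 to 15258633 per tumor. More genes had at least 1 fragment in the SKOV3 HD tumors (23651 to 23762) than in the NSCT tumors (22845 to 22963). On the first principal component, with 33.3% of the variance, NSCT 1 lay apart from the other 5 tumors. NSCT 1 also had the lowest total over the 9 granule genes, so the fold changes of the 4 tested genes are also given without it. What became of mouse reads in the alignment was not given in the sources used here. For the labelled tumor type, 10 pancreatic epithelial markers were read, which were all tested but differed widely in level. KRT19, an epithelial keratin, had 13287 to 23889 fragments per tumor. CEACAM5 had only 15 to 48 and CEACAM6 5 to 32. These counts are not a test of the tumor type.

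The sequences of both main tryptase genes bear on how their reads can be told apart. TPSB2 and TPSAB1 encode the beta and alpha/beta tryptases of mast cells. Their coding regions in GENCODE release 29 (transcripts ENST00000606293.5 and ENST00000338844.7) are both 828 bases long and differ at 4 positions, an identity of 99.5%. The 4 positions all lie in the stretch below, coding bases 69 to 158, with the differing bases in capitals. It is at chr16:1229641-1229730 on the minus strand for TPSB2 and at chr16:1241160-1241249 on the plus strand for TPSAB1 (hg38).
TPSB2: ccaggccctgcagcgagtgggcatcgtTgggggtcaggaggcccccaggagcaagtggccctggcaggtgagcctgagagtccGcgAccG
TPSAB1: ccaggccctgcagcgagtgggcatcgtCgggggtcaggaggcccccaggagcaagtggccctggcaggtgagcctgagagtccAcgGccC
The longest run that both coding regions share has 670 bases. Of all windows of 150 bases in that of TPSB2, 76.7% were found unchanged in that of TPSAB1. Levels of TPSB2 and TPSAB1 are therefore uncertain against each other, and their sum is given beside them. If reads that fit both genes were dropped in the counting, both levels and the sum are too low. PRTN3 shares no 50-base window with ELANE (0%), its closest relative in the set, at 66.0% identity of the coding regions.

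PRTN3, AZU1 and ELANE lie side by side on chromosome 19. The RefSeq promoter table (GRCh38.p14) held 5 of the 9 genes, namely CMA1, CPA3, PRTN3, AZU1 and CTSG. The 250 bases before the RefSeq start are shown for PRTN3 and AZU1, neighbours of which only PRTN3 had more than a few fragments, and for CPA3, the mast cell gene at 0. Capitals mark matches to 4 motifs searched on both strands. These were AGATAA of GATA factors, GAGGAA of ETS factors such as PU.1, TTGCNNAA of C/EBP factors and TGTGGT of RUNX factors. The windows are chr19:840749-840998 for PRTN3, chr19:827587-827836 for AZU1 and chr3:148865046-148865295 for CPA3, all on the plus strand. RefSeq and GENCODE place the starts differently, so the PRTN3 and CPA3 windows run past the GENCODE start given below, and the AZU1 window lies inside the GENCODE gene.
PRTN3: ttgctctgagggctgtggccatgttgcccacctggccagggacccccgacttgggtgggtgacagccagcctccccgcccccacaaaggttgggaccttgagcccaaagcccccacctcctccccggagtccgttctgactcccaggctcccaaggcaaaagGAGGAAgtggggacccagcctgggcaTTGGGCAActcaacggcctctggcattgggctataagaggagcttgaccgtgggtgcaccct
AZU1: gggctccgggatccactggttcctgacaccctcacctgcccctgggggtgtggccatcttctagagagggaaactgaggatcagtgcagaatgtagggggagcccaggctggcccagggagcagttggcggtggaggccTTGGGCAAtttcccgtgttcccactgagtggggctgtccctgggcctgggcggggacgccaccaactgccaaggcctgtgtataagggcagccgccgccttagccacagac
CPA3: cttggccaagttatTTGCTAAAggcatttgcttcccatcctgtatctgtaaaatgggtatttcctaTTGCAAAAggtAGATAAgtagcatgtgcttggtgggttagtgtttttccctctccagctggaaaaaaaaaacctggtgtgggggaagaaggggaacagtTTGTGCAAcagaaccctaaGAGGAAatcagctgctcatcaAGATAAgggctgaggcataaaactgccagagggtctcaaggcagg
The PRTN3 window held 1 GAGGAA and 1 TTGCNNAA, and the AZU1 window held 1 TTGCNNAA. The CPA3 window held 2 AGATAA, 1 GAGGAA and 3 TTGCNNAA. Of 35116 promoters of this length, 9.17% held AGATAA, 23.6% GAGGAA, 9.05% TTGCNNAA and 11.0% TGTGGT. A match describes the letters of the window and is not evidence of binding.

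Of the mast cell genes, both main tryptases were measurable and had higher means in the SKOV3 HD tumors, whereas chymase was at a few fragments and carboxypeptidase A3 at 0. TPSB2 (ENSG00000197253, chr16:1227272-1230184, minus strand) measured 0.0846, 0.318 and 0.449 FPKM in the saline-treated tumors 1 to 3. In the tumors injected with SKOV3 it measured 1.33, 0.669 and 2.45 FPKM. The groups did not overlap, and SKOV3 HD 3 was the highest tumor. The group means were 0.284 ± 0.185 and 1.48 ± 0.901 FPKM (SD, n = 3 each), a ratio of 5.23. On the log2(FPKM + 0.1) scale the fold change, SKOV3 HD over NSCT, was 2.02 ± 0.52 (SE). In fragments, TPSB2 had 2, 8 and 11 against 32, 17 and 66. The sums of 21 and 115, set against the library totals, give a ratio of 5.25 with an exact 95% interval of 3.28 to 8.81. Such intervals cover counting error only, not the spread between tumors.

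TPSAB1 (ENSG00000172236, chr16:1240696-1242554, plus strand) had 0.0486, 0.867 and 0.61 FPKM in the NSCT tumors and 1.1, 0.679 and 3.63 FPKM in the SKOV3 HD tumors. Here the groups overlapped, because NSCT 2 lay above SKOV3 HD 2, and the low value of NSCT 1 rests on 1 fragment. The means were 0.509 ± 0.419 and 1.80 ± 1.60 FPKM (SD, n = 3 each), with a log2 fold change of 1.70 ± 0.77 (SE). Without NSCT 1 this fell to 0.87, and without SKOV3 HD 3 to 1.05.
How the counting treated reads that fit both genes is not known here. Summed over both genes, the tryptase fragments were 3, 27 and 24 in NSCT 1 to 3 and 55, 32 and 151 in SKOV3 HD 1 to 3. The groups did not overlap in this sum, but NSCT 2 and SKOV3 HD 2 lay close together. The log2 fold change of the sum was 2.02. TPSB2 made up 29.6% to 66.7% of the tryptase fragments per tumor, and the groups overlapped in this share.

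CMA1 (ENSG00000092009, chr14:24505353-24508265, minus strand) encodes chymase, the chymotrypsin-like protease of mast cells. It had 1, 4 and 0 fragments in the NSCT tumors and 3, 5 and 0 in the SKOV3 HD tumors, or 0 to 0.295 against 0 to 0.365 FPKM. The ratio of summed fragments was 1.54 with an interval of 0.443 to 5.96, which covers counting error only and is not a test. The antisense gene AL132800.1 covers the whole of CMA1 and had 10 to 14 fragments per tumor. The strand setting of the counting was not given in the sources used here, so the few reads of either gene may belong to the other. CPA3 (ENSG00000163751, chr3:148865256-148897196, plus strand) encodes carboxypeptidase A3, an abundant mast cell protease. It had 0 fragments in all 6 tumors. A count of 0 allows up to 3 fragments per tumor, or 0.105 to 0.119 FPKM. The antisense gene AC092979.1 spans the whole of CPA3 and had 1 fragment in NSCT 3 and 0 in the other tumors. Whether exons of both genes overlap was not examined, so the strand setting may also bear on the count of CPA3.

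Of the neutrophil genes, PRTN3 and MPO were measurable with higher means in the SKOV3 HD tumors, and elastase, azurocidin and cathepsin G were at or near 0. PRTN3 (ENSG00000196415, chr19:840960-848175, plus strand) encodes proteinase 3, a serine protease of azurophil granules. It measured 0.577, 1.02 and 1.30 FPKM in the saline-treated tumors 1 to 3, against 2.64, 1.97 and 1.80 FPKM after SKOV3 injection. The groups did not overlap, and the 3 SKOV3 HD tumors lay closer together than for the tryptases. The means were 0.967 ± 0.365 and 2.14 ± 0.444 FPKM (SD, n = 3 each), a ratio of 2.21, and the log2 fold change was 1.11 ± 0.30 (SE). In fragments these are 9, 17 and 21 against 42, 33 and 32. The ratio of the sums was 2.18, with an interval of 1.54 to 3.15.

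MPO (ENSG00000005381, chr17:58269856-58280935, minus strand) encodes myeloperoxidase, the heme enzyme that makes hypochlorous acid. It had 0.0834, 0.0783 and 0.382 FPKM in the NSCT tumors and 0.532, 0.349 and 0.384 FPKM in the SKOV3 HD tumors. The groups overlapped: NSCT 3 lay within the SKOV3 HD values, and NSCT 1 and NSCT 2 rest on 4 fragments each. The means were 0.181 ± 0.174 and 0.422 ± 0.0967 FPKM (SD, n = 3 each), and the log2 fold change was 1.04 ± 0.41 (SE). At these levels the pseudocount of 0.1 takes part in the value, and with a pseudocount of 1 it was 0.28.

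ELANE (ENSG00000197561, chr19:851014-856247, plus strand) encodes neutrophil elastase, the best known of these proteases. It had 0 fragments in all 6 tumors, which allows up to 0.188 to 0.215 FPKM per tumor. AZU1 (ENSG00000172232, chr19:825097-832018, plus strand) encodes azurocidin, an antimicrobial protein without protease activity. It had 0, 1 and 0 fragments in the NSCT tumors and 1, 0 and 3 in the SKOV3 HD tumors, at most 0.109 FPKM. CTSG (ENSG00000100448, chr14:24573522-24576260, minus strand), which encodes cathepsin G, had 1 fragment in NSCT 2, or 0.0502 FPKM, and 0 in the other 5 tumors. Within the azurophil granule set, PRTN3 thus had 47 fragments over the NSCT tumors and 107 over the SKOV3 HD tumors, while its neighbour ELANE had none. In bulk RNA, fewer cells of a type and less RNA per cell cannot be told apart.

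The order of the mean levels, which is per exon length, was the same for the 5 highest genes in both groups. PRTN3 was highest, followed by TPSAB1, TPSB2, MPO and CMA1. How reads that fit both tryptases were counted is not known here. The places of TPSAB1 and TPSB2 in this order, and the tryptase percentages below, are therefore uncertain. Neighbours in this order overlapped in the NSCT tumors: the range of each of these 5 genes overlapped that of the next. In the SKOV3 HD tumors, PRTN3 (1.80 to 2.64 FPKM) overlapped TPSAB1 and TPSB2, whereas MPO at its highest, 0.532 FPKM, lay below the lowest tumor of TPSB2, TPSAB1 and PRTN3. All of these are low levels. In the NSCT tumors, 20.1% of the tested genes had a lower mean than PRTN3, 11.8% than TPSAB1, 5.89% than TPSB2 and 2.98% than MPO. In the SKOV3 HD tumors these shares were 32.2%, 29.1%, 25.8% and 8.77%. Over all 9 genes the tumors had 17, 54 and 64 fragments in NSCT and 127, 88 and 207 in SKOV3 HD, and the groups did not overlap. Most of this sum came from genes chosen for being higher in SKOV3 HD, so nothing is read from the separation. Tryptase made up 17.6% to 50% of the fragments of the 9 genes in the NSCT tumors. In the SKOV3 HD tumors it made up 36.4% to 72.9%, the highest share being that of SKOV3 HD 3.

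These fold changes stand against a background in which no gene passed the test. With limma and Benjamini-Hochberg adjustment, 0 of 15136 tested genes had an adjusted p under 0.05, or 0%. A total of 867 genes had an unadjusted p under 0.05, and limma-voom on the recovered fragments gave 0 and 818. A fold change of at least 2 upward was seen in 86 tested genes, or 0.568%, and in all 4 tested granule genes. Groups that did not overlap with SKOV3 HD higher were seen in 873 genes, or 5.77%, and in TPSB2 and PRTN3. Because the genes were chosen on this contrast, and passed the fragment filter only through the SKOV3 HD tumors, nothing is read from these counts. The 4 genes had a mean of 10 to 50 fragments per tumor. Among the 3058 tested genes of that level, 1.8% had a fold change of at least 2 upward and 8.08% had SKOV3 HD above NSCT without overlap. Low genes also tended to be higher in SKOV3 HD. The median log2 fold change was 0.10 at a mean of 10 to 50 fragments and −0.04 at 1000 or more, and 60.9% and 41.1% of these genes lay above 0. The part of this shift, and of the larger number of detected genes, in the values of the granule genes was not tested.

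**Figure D1:**
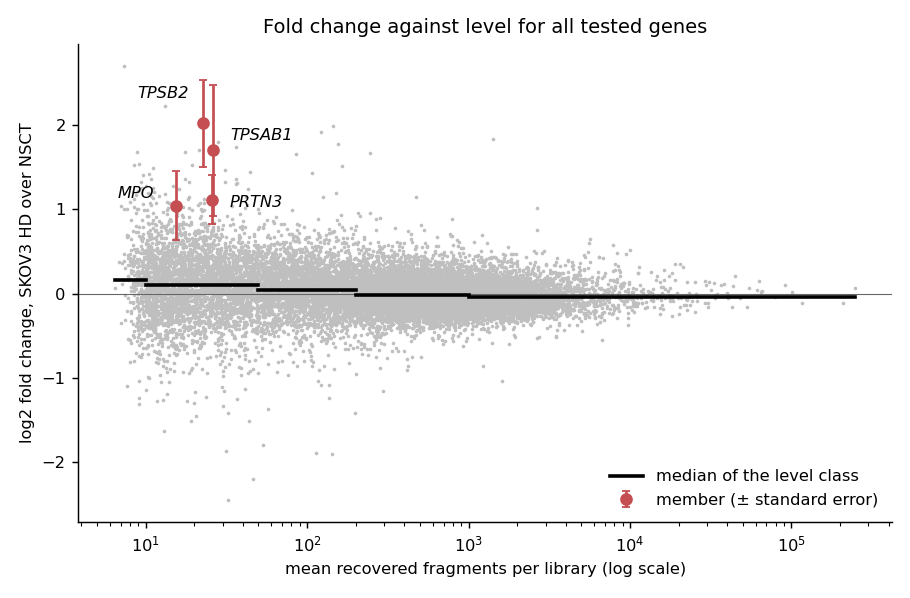
Log2 fold change (SKOV3 HD over NSCT, log2(FPKM + 0.1) scale) of the 15136 tested genes against their mean recovered fragments per library on a log axis; red points with lines are the 4 tested granule genes ± SE, and black lines the median of each level class. The granule genes lie among the low genes at 1.04 to 2.02, above the class median of 0.10.

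The 4 tested genes were also compared with their neighbours on the chromosome, 5 on each side of TPSB2, PRTN3 and MPO. Apart from the granule genes, 8 of these neighbours were tested. None of the 8 passed the test, 7 had a log2 fold change above 0, and their median was 0.09. Of all 15136 tested genes, 7579 lay above 0 and 7557 below. This is also the background for the counts above 0 in the gene lists below. TPSG1, the membrane-anchored gamma tryptase, was the neighbour with a large difference. By start coordinate it lies at −5.62 kb from TPSB2, and it had 4, 12 and 22 fragments in the NSCT tumors and 32, 43 and 56 in the SKOV3 HD tumors. Its means were 0.713 ± 0.507 and 2.35 ± 0.521 FPKM (SD, n = 3 each), and the groups did not overlap. The log2 fold change was 1.79 ± 0.46 (SE), with a limma adjusted p of 0.803. The end of the calcium channel gene CACNA1H shares 122 bases with TPSG1 on the other strand. CACNA1H had 0, 0 and 3 fragments in the NSCT tumors and 2, 8 and 10 in the SKOV3 HD tumors. AC120498.10, which lies within TPSG1 on the other strand, had at most 5 fragments. TPSD1, the delta tryptase 28.8 kb after TPSB2, had 4 fragments in SKOV3 HD 3 and 0 in the other 5 tumors. The beta, alpha/beta and gamma tryptase genes of the cluster thus had higher means in SKOV3 HD, and the delta gene was near 0. No annotated gene overlaps TPSB2, TPSAB1, PRTN3 or MPO.

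**Figure D2:**
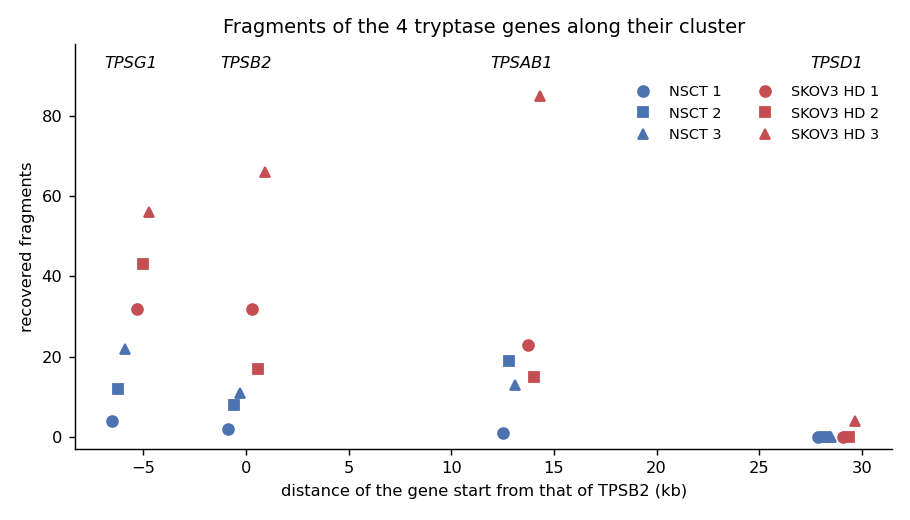
Recovered fragments of the 4 tryptase genes in each tumor, placed along the cluster by the distance of their starts from that of TPSB2 in kb; points of a gene are spread sideways, blue for NSCT and red for SKOV3 HD, with a shape per replicate number. SKOV3 HD 3 has the most fragments for all 4 genes, and TPSD1 is at 0 in the other 5 tumors.

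Around PRTN3, 4 neighbours were tested. CFD, which encodes complement factor D and starts 18.7 kb after PRTN3, had 11.9 ± 1.32 and 17.0 ± 6.13 FPKM (SD, n = 3 each). Its log2 fold change was 0.46 ± 0.23 (SE; limma adjusted p = 0.803). PTBP1, MED16 and R3HDM4 had log2 fold changes of −0.06 ± 0.10, 0.12 ± 0.10 and 0.04 ± 0.14 (SE). AZU1 and ELANE, which flank PRTN3 at −15.9 and 10.1 kb, were near 0 as described. Around MPO, the cilium gene MKS1 had 0.12 ± 0.18, TSPOAP1 0.06 ± 0.29 and its antisense gene TSPOAP1-AS1 0.02 ± 0.26 (log2 fold change, SE). EPX and LPO, the eosinophil peroxidase and lactoperoxidase genes related to MPO, were too low to be tested. EPX had 2, 1 and 2 fragments in the NSCT tumors and 3, 4 and 4 in the SKOV3 HD tumors. LPO had 10, 3 and 3 in the NSCT tumors and 3, 1 and 0 in the SKOV3 HD tumors.

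The defining genes of mast cells were then read in the same tumors. FCER1A and MS4A2, the alpha and beta chains of the high-affinity IgE receptor, were at 0 in all 6 tumors, as were SIGLEC8 and ADCYAP1. HDC and HPGDS, which make histamine and prostaglandin D2, had at most 1 fragment in any tumor. Of the 22 other mast cell genes, 7 were tested and 0 passed (limma, adjusted p under 0.05), with 2 above and 5 below 0. The median log2 fold change was −0.07, beside 0.000501 for all tested genes, and its sign turned on leaving out 1 tumor (range −0.27 to 0.10). Their summed level ranged from 10.8 to 24.1 FPKM in NSCT and from 11.8 to 19.1 FPKM in SKOV3 HD. Most of this sum came from KIT, SIGLEC6, GATA2 and MITF, so it says little about the other genes of the list. SIGLEC6 had 31, 64 and 325 fragments in the NSCT tumors and 181, 44 and 52 in the SKOV3 HD tumors. KIT, the stem cell factor receptor, had 195, 197 and 498 fragments in the NSCT tumors and 254, 194 and 90 in the SKOV3 HD tumors. Its log2 fold change was −0.73 ± 0.47 (SE; limma adjusted p = 0.803), and SKOV3 HD 3, highest for the tryptases, was lowest for KIT. LTC4S, the leukotriene C4 synthase, had 0.71 ± 0.47, and GATA2, a transcription factor of the mast cell lineage, −0.09 ± 0.22 (log2 fold change, SE). The tryptases were thus measured in tumors in which FCER1A, MS4A2 and CPA3 had no fragment. FCER1G, the receptor's gamma chain, which other leukocytes also express, had 1, 5 and 0 fragments in the NSCT tumors and 3, 3 and 4 in the SKOV3 HD tumors.

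The other genes of neutrophils were read in the same way. Of 22 other neutrophil granule proteins, 9 were at 0 in all 6 tumors, namely DEFA1, DEFA1B, DEFA3, DEFA4, BPI, MMP8, CRISP3, S100A12 and PRSS57. A total of 5 were tested and 0 passed (limma), with 3 above and 2 below 0 and a median of 0.03. Leaving out 1 tumor at a time gave medians of −0.24 to 0.18. Their summed level was 386 to 418 FPKM in NSCT and 269 to 449 FPKM in SKOV3 HD. Most of this sum came from OLFM4, given below, and LCN2, at 180 ± 52.6 and 179 ± 20.7 FPKM (SD, n = 3 each). The sum therefore says little about the other genes of the list. LTF, which was not tested, had 1, 4 and 4 fragments against 9, 8 and 10, without overlap. MMP25, also not tested, had 6, 4 and 6 against 5, 1 and 4. S100A9, a subunit of calprotectin, had 10, 20 and 23 fragments against 34, 25 and 25, and a log2 fold change of 0.65 ± 0.30 (SE; limma adjusted p = 0.803). Its partner S100A8 had at most 1 fragment. OLFM4, a secreted glycoprotein of specific granules and of gut epithelium, had 181 ± 53.7 and 146 ± 92.6 FPKM (SD, n = 3 each). CHI3L1, a chitinase-like protein, had a log2 fold change of −0.27 ± 0.37 (SE).
Among 15 neutrophil surface and lineage genes, FCGR3B, CSF3R and CEBPE were at 0 in all 6 tumors. CSF3R is the receptor for the neutrophil growth factor G-CSF. A total of 7 were tested, 0 passed (limma), 5 lay above 0 and the median was 0.17. CEBPA, the C/EBP factor of early myeloid cells, had 0.37 ± 0.23, MYB −0.22 ± 0.16, ITGAM 0.39 ± 0.37 and CD177, a surface partner of proteinase 3, −1.08 ± 0.92 (log2 fold change, SE). Of 7 eosinophil granule genes, PRG2, PRG3, RNASE2, RNASE3 and CLC were at 0 in all 6 tumors, and 0 of the 7 were tested.

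**Figure D3:**
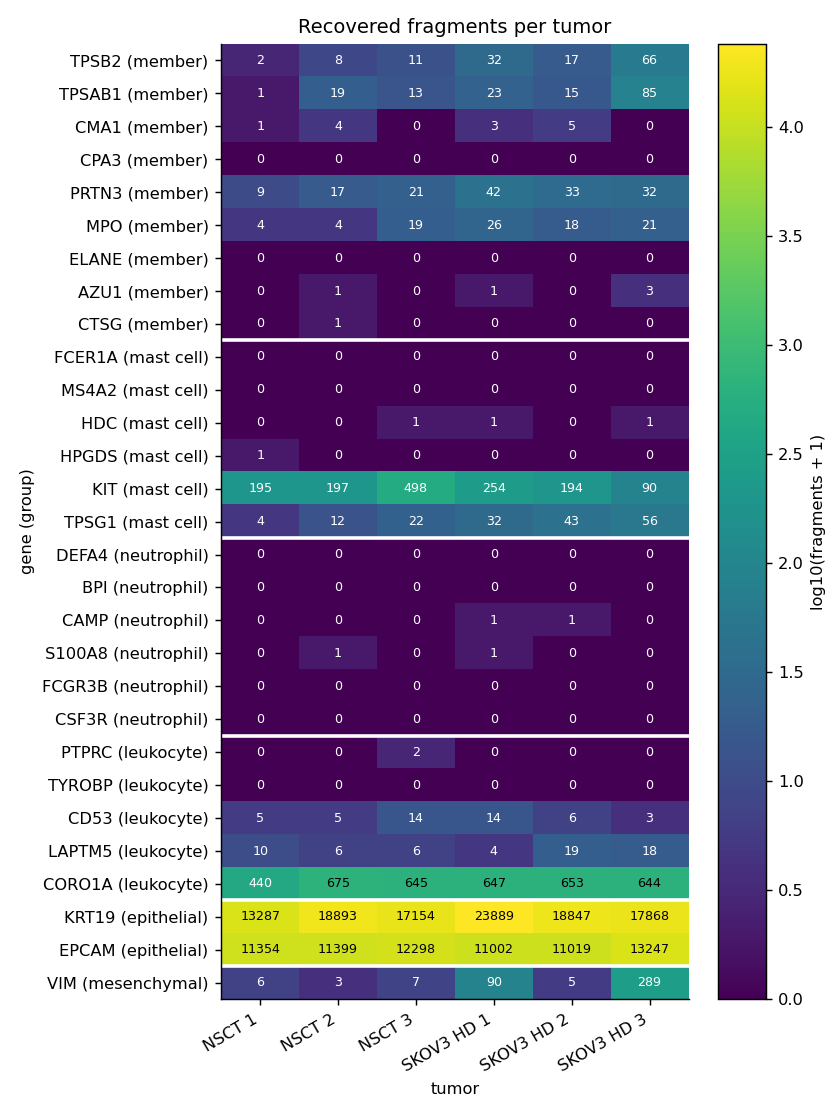
Recovered fragments per tumor (numbers; color on a log10(fragments + 1) scale) for the 9 granule genes and for selected mast cell, neutrophil, leukocyte, epithelial and mesenchymal genes. FCER1A, MS4A2, DEFA4, BPI, FCGR3B, CSF3R and TYROBP are at 0 in all 6 tumors, while KRT19 has at least 13287 fragments in each.

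Of the general leukocyte genes, PTPRC, which encodes the leukocyte surface protein CD45, had 2 fragments in NSCT 3 and 0 in the other 5 tumors. TYROBP, AIF1 and MS4A1 were at 0 in all 6 tumors. Of 15 such genes, 6 were tested and 0 passed (limma), with 5 above 0 and a median of 0.17. Their summed level was 10.7 to 14 FPKM in NSCT and 13.0 to 14.7 FPKM in SKOV3 HD, and most of it came from CORO1A. LAPTM5, CSF1R, CORO1A and CD14 had log2 fold changes of 0.44 ± 0.40, 0.38 ± 0.37, 0.11 ± 0.16 and 0.11 ± 0.19 (SE). Of 7 lymphocyte granule proteases, GZMK and GNLY were at 0 and 3 were tested, all 3 above 0 with 0 passing (limma) and a median of 0.33. PRF1, the pore-forming protein perforin, was high among them at 79.9 ± 15.4 and 110 ± 63.0 FPKM (SD, n = 3 each). GZMB and GZMA, the granzymes of cytotoxic lymphocytes, had log2 fold changes of 0.58 ± 0.46 and 0.26 ± 0.48 (SE).

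The other cell types that the tumor tissue or the injection could bring in were read from their markers. Fibroblast markers summed to 1.56 to 2.04 FPKM in NSCT and 1.93 to 2.30 FPKM in SKOV3 HD, with DCN and FAP at 0. Of the 10, 3 were tested, all 3 above 0 with 0 passing the limma test and a median of 0.08. Of 8 endothelial markers 2 were tested, with 0 passing and a median of 0.25. Of 7 muscle and adipocyte markers 1 was tested. Of 7 erythroid markers, HBD was at 0, and HBA2 was tested at −1.17 ± 0.77 (log2 fold change, SE). The 10 pancreatic epithelial markers had 4 above and 6 below 0, a median of −0.03 and 0 passing. Of 12 ovarian carcinoma and mesenchymal genes, 8 were tested, with 5 above and 3 below 0, a median of 0.28 and 0 passing. FOLR1, ERBB2, PAX8 and WT1 had log2 fold changes of 0.49 ± 0.15, 0.33 ± 0.14, 0.45 ± 0.23 and 0.55 ± 0.31 (SE). They are named for the smallest unadjusted limma p of the list, and do not stand for the 3 genes below 0. VIM, the mesenchymal filament vimentin, was not tested and was picked once its values had been seen. It had 6, 3 and 7 fragments in the NSCT tumors and 90, 5 and 289 in the SKOV3 HD tumors. SKOV3 HD 1 and 3, with the high VIM values, were also the tumors with the most TPSB2 and TPSAB1 fragments, and for PRTN3 and MPO the highest tumor was SKOV3 HD 1. The match with VIM was not complete. SKOV3 HD 2, with 5 VIM fragments, had 33 PRTN3 fragments against 32 in SKOV3 HD 3. It also had 43 TPSG1 fragments against 32 in SKOV3 HD 1, and the fewest MPO fragments of its group, 18. The part of injected cells in the granule gene values was not tested, and reads of SKOV3 and SW1990 cells cannot be told apart in these files.

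Genes for the maturation, storage and inhibition of these proteases were also read. CTSC encodes cathepsin C, which activates the granule serine proteases, and had 501 to 607 fragments in the NSCT tumors and 432 to 731 in the SKOV3 HD tumors. SRGN, the granule proteoglycan serglycin that binds them in store, had 1 to 6 fragments in any tumor. Of 18 processing and inhibitor genes, 12 were tested and 0 passed (limma), with 7 above and 5 below 0 and a median of 0.07. SERPINA1, which encodes alpha-1-antitrypsin, the main plasma inhibitor of elastase and proteinase 3, had 10.3 ± 0.88 and 15.1 ± 2.28 FPKM (SD, n = 3 each) without overlap. Its log2 fold change was 0.54 ± 0.14 (SE; limma adjusted p = 0.803). PI3, the epithelial elastase and proteinase 3 inhibitor elafin, had 12.6 ± 6.21 and 5.91 ± 1.78 FPKM (SD, n = 3 each), a log2 fold change of −0.96 ± 0.41 (SE; limma adjusted p = 0.803). LGMN and DPP7, which are lysosomal peptidases, had 0.24 ± 0.12 and 0.31 ± 0.21 (log2 fold change, SE).
Among 10 receptors and targets of tryptase, 4 were tested, with 2 above and 2 below 0, 0 passing (limma) and a median of −0.00095. F2RL1 encodes PAR2, the receptor that tryptase cleaves, and had 34.9 ± 4.6 and 31.3 ± 1.57 FPKM (SD, n = 3 each). Its log2 fold change was −0.15 ± 0.12 (SE; limma adjusted p = 0.813). PLAU, the urokinase that tryptase can activate, had a log2 fold change of 0.43 ± 0.17 (SE; limma adjusted p = 0.803), and its groups did not overlap. PLAUR and F2R had 0.07 ± 0.15 and −0.07 ± 0.20 (log2 fold change, SE).

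The granule genes were last compared with each other and with all tested genes by their pattern over the 6 tumors, as Pearson's r of log2(FPKM + 0.1). The 6 points share the group difference on which the genes were chosen, so r is a description. TPSB2 and TPSAB1, which share most of their coding sequence, had r = 0.92. PRTN3 and MPO had 0.88, TPSB2 and PRTN3 0.86, TPSB2 and MPO 0.79, PRTN3 and TPSAB1 0.73 and MPO and TPSAB1 0.58. TPSG1 had 0.92 with TPSB2, 0.91 with PRTN3 and 0.85 with MPO. The 3 genes most like TPSB2 were BX640514.2, SCAMP5 and ELP6 (r = 0.993, 0.987 and 0.986), and 110 tested genes had r of at least 0.9 with it. For PRTN3 they were PLA2G2C, REC8 and AC005253.1 (0.995, 0.990 and 0.990), of 285 genes. For MPO they were PADI1, AC008267.3 and C15orf61 (0.997, 0.994 and 0.992), of 116 genes. None of these 9 genes is in the mast cell or neutrophil lists used here. S100A9, picked by hand from the neutrophil granule list, had r = 0.952 with PRTN3, 0.825 with MPO and 0.778 with TPSB2. The other tested genes of that list were not looked up in this way, so nothing about the list is read from S100A9.

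Leaving out each tumor in turn moved the sizes but not the direction of the 4 tested granule genes. The set was chosen on this direction, so its staying is no support. For TPSB2 and PRTN3, whose groups do not overlap, leaving out 1 tumor could not have turned it. The log2 fold change of TPSB2 ranged from 1.56 without NSCT 1 to 2.45 without SKOV3 HD 2, and that of PRTN3 from 0.82 without NSCT 1 to 1.34 without NSCT 3. MPO ranged from 0.80 without NSCT 2 to 1.51 without NSCT 3, with 0.82 without NSCT 1, and TPSAB1 from 0.87 without NSCT 1 to 2.22 without NSCT 2.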

How the data were processed

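RNA of 3 NSCT and 3 SKOV3 HD tumors was measured. The authors deposited 1 table of FPKM per tumor. Per the submitters' processing notes, reads were aligned to hg38 by HISAT2 2.0.5 and counted by featureCounts 1.5.0-p3. Their annotation, strand setting and handling of mouse sequence were not given in the sources used here. Every gene ID (100%) matched GENCODE release 29, and FPKM times its exon length gave whole fragments within 0.01 for 100% of values. Replicates differed by more than sampling noise, at 10.1 to 31.4 for chi-square per degree of freedom. Fold changes came from limma (version 3.58.1, R version 4.3.3, with a trend in eBayes) on log2(FPKM + 0.1), which understates the change of low genes. The fit was also run on simulated counts with the same spread set for every gene. That run does not show its power for the granule genes. Genes needed 10 fragments in 3 libraries, and p-values were adjusted by Benjamini-Hochberg. Python 3.11.15 with SciPy 1.17.1, pandas 2.3.3, Matplotlib 3.10.9 and NumPy 2.4.6 was used for tables and plots.

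The members and the 16 gene lists were chosen with earlier results of these data known. Named genes are the 9 members, up to 4 tested genes per list with the smallest p, markers at 0, those tested among the 5 nearest genes on each side, and the 3 most similar genes. VIM, CTSC, SRGN, KRT19, CEACAM5, CEACAM6, LCN2, the low markers and untested neighbours were chosen beyond the rule once their values had been seen. So were SIGLEC6, MITF and AC092979.1. Alternatives covered the pseudocount, filter, scaling, limma-voom, a replicate block and leaving out each tumor.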

Additional observations from a re-analysis of the deposited data

How the results depend on the processing

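The number of genes past the limma test stayed at 0 under all 13 alternatives, over all genes and in the gene lists. The number of tested genes at least 2-fold higher, 86, moved to 10 with a pseudocount of 1, 151 with 0.01, 159 with limma-voom, 310 with an FPKM filter of 0.5 and 1185 with any gene of 1 fragment. It ranged from 93 to 143 without single tumors. Genes at an unadjusted p under 0.05 numbered 867, and 469 without SKOV3 HD 2, 1597 without NSCT 2 and 1431 without the fragment filter. A pseudocount of 1 lowered the log2 fold change of TPSB2 to 0.90, of TPSAB1 to 0.79, of PRTN3 to 0.68 and of MPO to 0.28. For these low genes the size therefore depends on the pseudocount. MPO had no value under the FPKM filter.

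Medians of gene lists changed sign without single tumors. They ranged from −0.27 to 0.10 for other mast cell genes, −0.24 to 0.18 for other neutrophil granule proteins, −0.002 to 0.27 for neutrophil surface genes and −0.023 to 0.10 for protease processing and inhibitors. The cause was not tested. Correlations of deviations from the group means were −0.14, −0.19 and −0.13 for tumors of equal replicate number. For unequal numbers they ranged from −0.04 to 0.20. With so few tumors, these values cannot show whether equal numbers share anything. With the replicate number as a block, 0 genes passed, 532 had an unadjusted p under 0.05, and 86 were at least 2-fold higher. Depth limits CMA1, CPA3, ELANE, AZU1 and CTSG most.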
